A study of Danio rerio with 18 samples.

Results

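Photoreceptor genes other than the opsins are described here in RNA-seq of GFP-positive retinal cells sorted from isl2b:GFP zebrafish after optic nerve transection. The genes were chosen by name, from a list of 45 phototransduction and photoreceptor genes set without a threshold on any measured value. The list was set with earlier results of these data known. Of these names, 44 were found among the 25281 genes of the deposited count tables, and cnga1 was not matched by name. By their known cell type 14 were taken as rod genes, 16 as cone genes and 14 were not split. All 44 passed the filter on low counts.

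Rods and cones turn light into an electrical signal by one cascade, built in each cell type largely from its own gene copies. A light-activated opsin switches on the G protein transducin, transducin releases phosphodiesterase 6 from its inhibitory subunit, the falling cyclic GMP level closes cation channels, and kinases, arrestins and calcium sensors end the response. Most of these genes are textbook markers of photoreceptors, not of ganglion cells, the neurons whose axons form the optic nerve.

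All fish were adults of 3 to 5 months that carried the isl2b:GFP reporter, in which the isl2b promoter drives GFP and which is used to label ganglion cells. The injured groups (ONT+) had an optic nerve transection. The control groups (ONT-) were the uninjured contralateral eyes and carried the same reporter. Cells were taken 6, 12 or 24 hours after the injury (hpi), with 3 libraries in each of the 6 groups, from 1000 sorted cells per library, and polyA RNA was amplified with a SMART-Seq HT kit. The labels do not say whether replicates came from separate fish or from pools, so p-values measure the spread between these libraries.

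The 18 libraries held 15490375 to 28329194 counts. Summed over the 44 genes, photoreceptor transcripts took 5.51 to 9.39% of the counts of a library, and the 10 opsins took 8.99 to 18.7%. Of a list of 30 ganglion cell markers, 26 were found by name and took 0.0794 to 0.372%. isl2b itself ranged from 12.2 to 298 CPM (counts scaled to a common library size by the TMM method). Of the listed ganglion cell markers, isl1a, nefha, ebf3a and robo2 were not found by name, and 23 of the 26 found passed the low-count filter and were tested. The libraries labelled as ganglion cells therefore held more counts of photoreceptor genes than of the ganglion markers listed. In bulk samples, fewer cells of a type and less RNA per cell cannot be told apart. Sample sheet numbers in the library descriptions repeat and split the libraries into a set of 14 and a set of 4, and the labels do not say what the sets are. The smaller set holds control replicates 2 and 3 at 6 hpi, control replicate 1 at 24 hpi and injured replicate 3 at 24 hpi.

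Per transcript length, the rod genes led. On the authors' RPKM scale (reads scaled by transcript length and library size), gnat1, the alpha subunit of rod transducin, had a median level of 11117 over the 18 libraries, with a range of 6332 to 13171, and ranked 2 among all 25281 genes. It was followed by pde6gb (median 4520 RPKM), an inhibitory subunit of rod phosphodiesterase, sagb (3844 RPKM), a rod arrestin, pde6ha (3822 RPKM), the inhibitory subunit of cone phosphodiesterase, and gngt1 (3798 RPKM), the gamma subunit of rod transducin. The ranges of these 4 genes overlapped. The lowest levels were those of guca1e (median 0.13 RPKM), a calcium sensor gene, and grk7b (0.41 RPKM), an opsin kinase gene, with as few as 4 and 6 counts in a library. nrl, a transcription factor that sets rod fate in mouse, had a median of 1.85 RPKM.

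**Figure D1:**
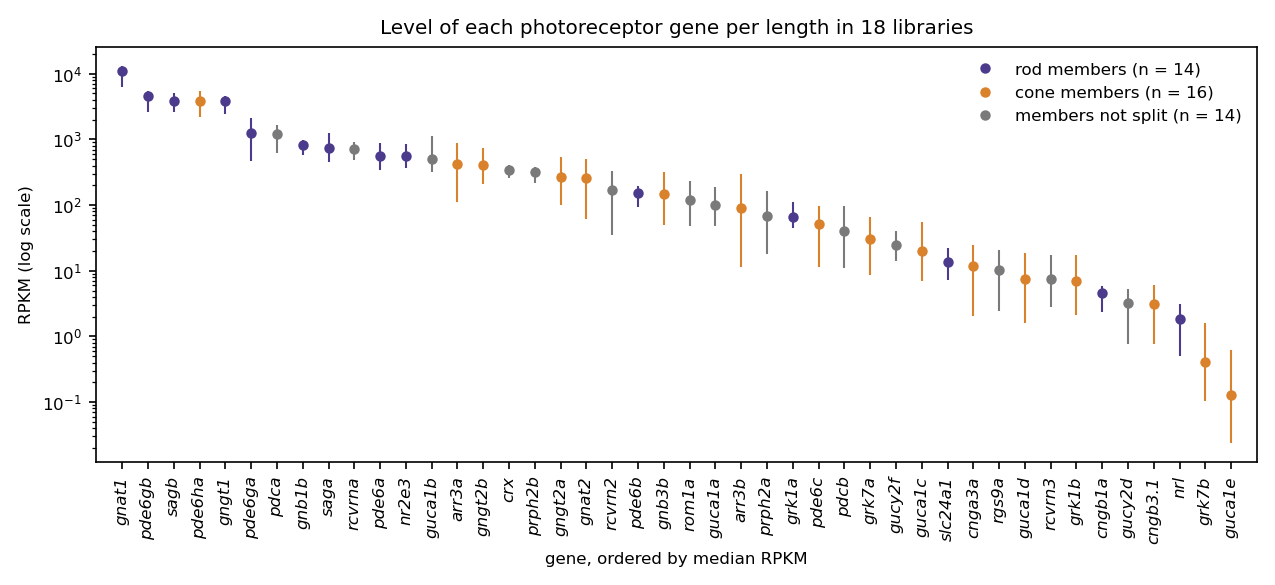
Level of each of the 44 photoreceptor genes on the authors' RPKM scale (log axis), ordered by median. Points are medians and lines the range over 18 libraries, and colours mark rod, cone and unsplit genes; gnat1 (median 11117 RPKM) stands highest and guca1e (0.13 RPKM) lowest.

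The first comparison asks how the transcripts of the injured eye's sorted cells differed from those of the contralateral eye at each time. At 6 hpi photoreceptor transcripts were higher in the injured libraries by fitted values, more so for cone than for rod genes, but none of the 44 passed edgeR's quasi-likelihood test after adjustment over all 17527 genes, where the share called was 0%. The median log2 fold change was 0.43 for the 14 rod genes, 1.17 for the 16 cone genes and 0.59 for the 14 unsplit genes, against -0.02 for all genes tested. The 44 genes share the same libraries and many varied together, so the counts that follow are not of independent genes. All 44 had a log2 fold change above 0, against 48.0% of all genes. At an unadjusted p under 0.05, 24 of 44 were higher and 0 lower, where 5.20% of all genes were higher. In 20 of 44 every injured library lay above every control library, which held for 6.13% of all genes; 13 of these were cone genes, 6 unsplit and 1, nr2e3, a rod gene.

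These counts moved with single libraries and with scaling. Leaving out 1 of the 6 libraries gave between 11 genes at an unadjusted p under 0.05 (without injured replicate 1) and 31 (without injured replicate 2), and 13, 16 and 14 without control replicate 1, control replicate 2 and injured replicate 3. In the deposited column names only this injured replicate 1 carries the word trimmed. The part of that difference in the counts was not tested. Scaling by the total count alone moved the median of all genes to -0.22, left 43 of 44 genes above 0, with cngb1a below, and left 15 of 44 at an unadjusted p under 0.05. The share of all genes at an unadjusted p under 0.05, in either direction, ranged from 5.51% (without control replicate 2) to 13% (without injured replicate 2) in these fits. The rod median was 0.26 without control replicate 2 and 0.77 without control replicate 3, where the cone medians were 1.18 and 1.00. With the sample sheet set as a covariate, 12 of 44 were at an unadjusted p under 0.05, where 6.50% of all genes were. The median was then 0.80 for cone genes and 0.51 for rod genes.

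Other fits called some genes at 6 hpi. DESeq2 called 5 members, all higher, where it called 0.453% of all genes: grk1b, pde6ha, prph2a, arr3b and gnb3b. edgeR fitted to the 6 libraries of that time alone called 2, gnat2 and prph2a, where it called 0.0386% of all genes. At an FDR under 0.05, 13 of 44 were higher in the authors' deposited table, where 0.391% of its genes were: gnat2, gnb3b, gngt2b, pde6c, arr3b, grk1b, grk7a, guca1c, rcvrn2, cnga3a, prph2a, rgs9a and pdcb. Of these 13 genes, 9 are in the cone group and 4 in the unsplit group.

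The ganglion marker list stood lower on average in the injured libraries at 6 hpi. The summed share of the ganglion marker list was 0.279% ± 0.081 (SD, n = 3) in the controls and 0.149% ± 0.104 in the injured libraries, with overlapping ranges, and 0 of its 23 tested genes were called, with a median log2 fold change of -0.84. Injured replicates 1 and 3 held 0.0794% and 0.100%, and injured replicate 2 held 0.269%, inside the range of the controls. The part of these measures in the result was not tested.

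**Figure D2:**
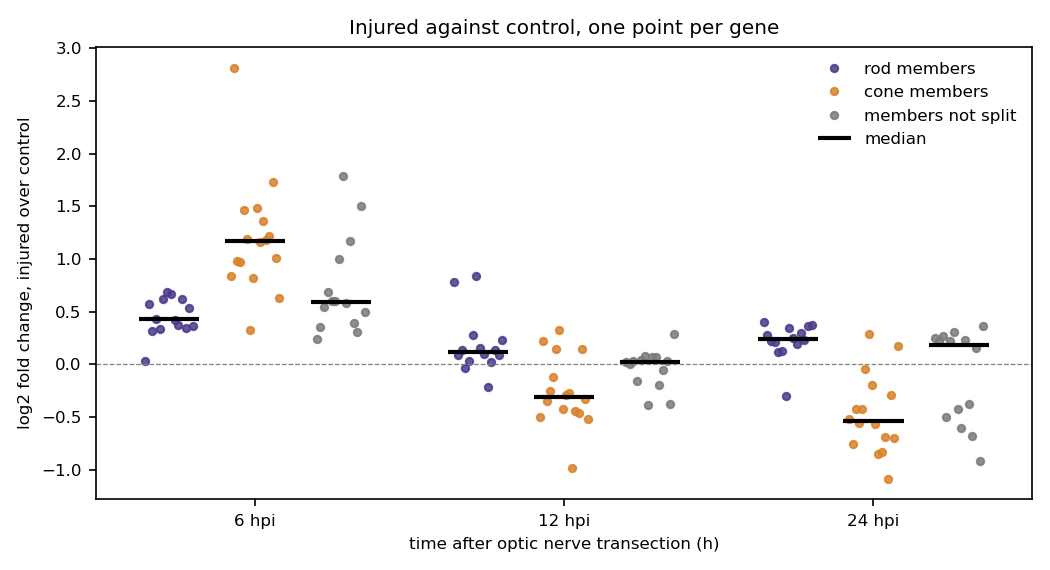
Log2 fold change of injured over control libraries from edgeR, one point per gene, for rod, cone and unsplit genes at 6, 12 and 24 hpi, with the median of each group as a black line. At 6 hpi all 44 points lie above 0, and at 24 hpi the medians are 0.24 for rod and -0.54 for cone genes.

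Among the transducin subunits, gnat1 (chromosome 6, 42918933 to 42930302, plus strand, GRCz11, whole gene) had control levels of 16742, 14083 and 28512 CPM (6 hpi), 18962, 26160 and 26331 CPM (12 hpi) and 27875, 28774 and 29173 CPM (24 hpi). Its injured levels were 35144, 18340 and 34871 CPM (6 hpi), 31779, 24421 and 19860 CPM (12 hpi) and 34161, 35727 and 34541 CPM (24 hpi). The groups overlapped at 6 and 12 hpi, and at 24 hpi each injured library lay above each control. edgeR gave a log2 fold change of 0.57 ± 0.26 (SE) at 6 hpi (edgeR adjusted p = 0.531), 0.09 ± 0.26 at 12 hpi and 0.28 ± 0.26 at 24 hpi (edgeR adjusted p = 0.846).

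The cone alpha subunit gnat2 (chromosome 8, 25225590 to 25247284, minus strand, GRCz11) had control levels of 373, 447 and 348 CPM (6 hpi), 1223, 1009 and 1104 CPM (12 hpi) and 266, 259 and 884 CPM (24 hpi). After injury it held 1087, 1017 and 1113 CPM (6 hpi), 1000, 1474 and 597 CPM (12 hpi) and 479, 202 and 370 CPM (24 hpi). At 6 hpi each injured library lay above each control, and the injured libraries were close to the 12 hpi controls. Control replicate 3 at 24 hpi lay far above the other controls of its group. Its log2 fold change was 1.46 ± 0.41 at 6 hpi (edgeR adjusted p = 0.407), -0.12 ± 0.40 at 12 hpi and -0.42 ± 0.40 at 24 hpi (edgeR adjusted p = 0.859).

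Of the beta subunits, gnb3b, the cone copy, had a log2 fold change of 1.19 ± 0.32 at 6 hpi (edgeR adjusted p = 0.388) and gnb1b, taken as the rod copy, one of 0.32 ± 0.24. Of the gamma subunits, the cone gene gngt2b stood at 153, 191 and 191 CPM in the 6 hpi controls and at 329, 302 and 313 CPM in the injured libraries, without overlap, a log2 fold change of 0.82 ± 0.28 (edgeR adjusted p = 0.454). The other cone copy gngt2a (log2 fold change 0.32 ± 0.34) and the rod gene gngt1 (0.43 ± 0.27) overlapped between the groups at that time.

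**Figure D3:**
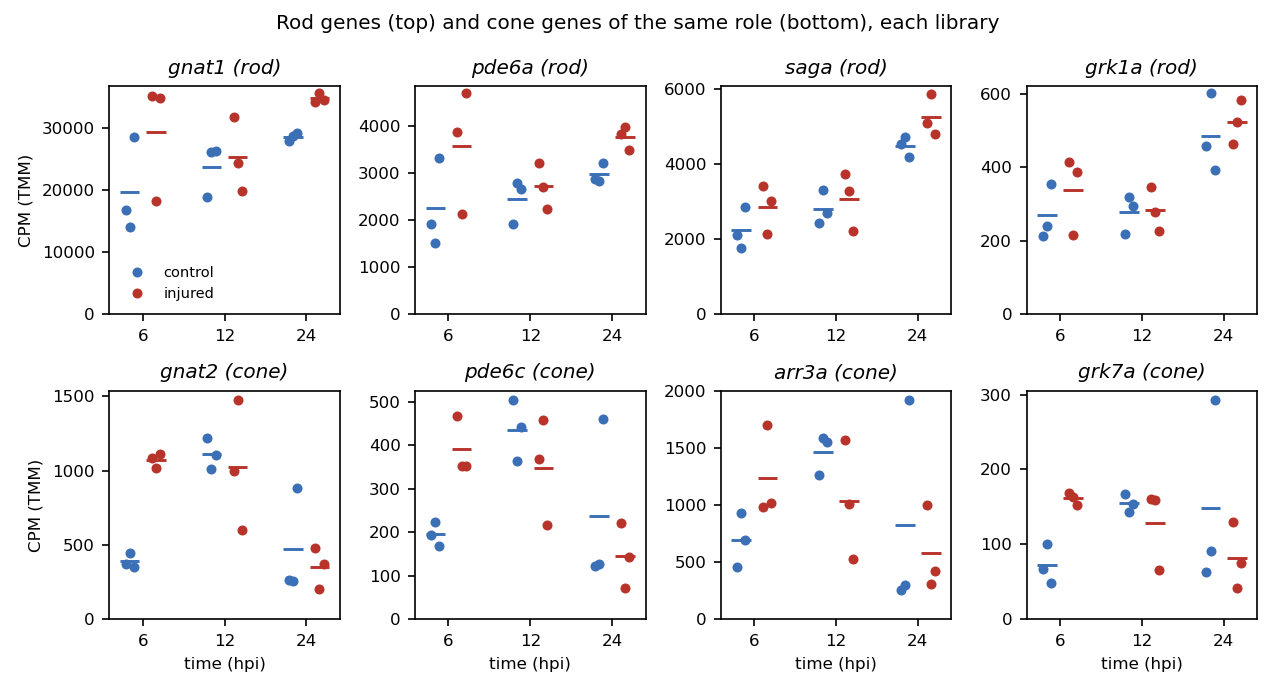
CPM (TMM) of 4 rod genes (top) and the cone gene of the same role (bottom) in each library at 6, 12 and 24 hpi; points are libraries and lines group means of 3. The injured libraries lie above the controls for gnat2, pde6c, arr3a and grk7a at 6 hpi and for gnat1, pde6a and saga at 24 hpi.

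Phosphodiesterase 6 is the enzyme that breaks down cyclic GMP. Its rod catalytic gene pde6a (chromosome 14, 25005403 to 25035010, minus strand, GRCz11) had control levels of 1913, 1510 and 3314 CPM (6 hpi), 1910, 2784 and 2657 CPM (12 hpi) and 2873, 2823 and 3218 CPM (24 hpi). Its injured levels were 3870, 2136 and 4687 CPM (6 hpi), 3215, 2711 and 2242 CPM (12 hpi) and 3832, 3977 and 3483 CPM (24 hpi). As with gnat1, only at 24 hpi did the groups not overlap. The log2 fold change was 0.67 ± 0.27 at 6 hpi (edgeR adjusted p = 0.513), 0.15 ± 0.27 at 12 hpi and 0.34 ± 0.27 at 24 hpi (edgeR adjusted p = 0.809).

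The cone catalytic gene pde6c (chromosome 12, 5129245 to 5154099, plus strand, GRCz11) had control levels of 193, 223 and 168 CPM (6 hpi), 503, 363 and 442 CPM (12 hpi) and 123, 127 and 460 CPM (24 hpi). The injured libraries held 468, 353 and 352 CPM (6 hpi), 368, 458 and 217 CPM (12 hpi) and 221, 71.5 and 143 CPM (24 hpi). The pattern over libraries was that of gnat2, with the 6 hpi controls below those of 12 hpi and 1 high control at 24 hpi. edgeR gave a log2 fold change of 1.01 ± 0.44 at 6 hpi (edgeR adjusted p = 0.526), -0.33 ± 0.44 at 12 hpi and -0.70 ± 0.44 at 24 hpi (edgeR adjusted p = 0.713).

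Of the inhibitory subunits, the cone gene pde6ha (chromosome 6, 344423 to 346084, minus strand, GRCz11) had control levels of 1877, 1969 and 2271 CPM (6 hpi), 3761, 3823 and 4603 CPM (12 hpi) and 3980, 3740 and 5135 CPM (24 hpi). After injury it held 3596, 2774 and 3088 CPM (6 hpi), 3183, 3305 and 2006 CPM (12 hpi) and 5187, 4393 and 4965 CPM (24 hpi). The injured libraries lay above the controls at 6 hpi, below them at 12 hpi and overlapped them at 24 hpi. Its log2 fold change was 0.63 ± 0.18 at 6 hpi (edgeR adjusted p = 0.409), -0.52 ± 0.18 at 12 hpi and 0.18 ± 0.18 at 24 hpi (edgeR adjusted p = 0.867).

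Named as a rod gene, pde6ga (chromosome 3, 19460991 to 19466015, plus strand, GRCz11) had log2 fold changes of 0.38 ± 0.32, -0.21 ± 0.32 and 0.19 ± 0.32 at 6, 12 and 24 hpi, with overlapping groups each time. The reference gene table gives its identifier the symbol PDE6H, that of the cone subunit in mammals, so the rod or cone place of pde6ga is uncertain. The same reference gives the identifier of pde6a the symbol PDE6B, also the name of a rod catalytic gene. It also gives gngt1 the symbol GNG11 and guca1e the symbol GUCA1A. pde6gb had log2 fold changes of 0.62 ± 0.25, 0.03 ± 0.25 and 0.30 ± 0.25, and pde6b, a second rod catalytic gene, 0.42 ± 0.24, 0.10 ± 0.24 and 0.25 ± 0.24.

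Arrestins bind the phosphorylated opsin and stop its signal. The rod arrestin saga (chromosome 2, 5480125 to 5505094, minus strand, GRCz11) had control levels of 2115, 1759 and 2861 CPM (6 hpi), 2437, 3303 and 2685 CPM (12 hpi) and 4547, 4729 and 4189 CPM (24 hpi). Its injured levels were 3418, 2132 and 3025 CPM (6 hpi), 3747, 3283 and 2214 CPM (12 hpi) and 5085, 5875 and 4793 CPM (24 hpi). Both eyes stood highest at 24 hpi, where the injured libraries lay above the controls. The log2 fold change was 0.35 ± 0.21 at 6 hpi (edgeR adjusted p = 0.637), 0.13 ± 0.21 at 12 hpi and 0.23 ± 0.21 at 24 hpi (edgeR adjusted p = 0.853).

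The cone arrestin arr3a (chromosome 10, 26800213 to 26811397, plus strand, GRCz11) had control levels of 455, 928 and 697 CPM (6 hpi), 1265, 1584 and 1555 CPM (12 hpi) and 258, 302 and 1920 CPM (24 hpi). The injured libraries held 984, 1704 and 1020 CPM (6 hpi), 1571, 1012 and 530 CPM (12 hpi) and 1001, 308 and 421 CPM (24 hpi). The controls at 24 hpi spanned from the lowest to the highest level of the 18 libraries. edgeR gave a log2 fold change of 0.83 ± 0.62 at 6 hpi (edgeR adjusted p = 0.719), -0.50 ± 0.62 at 12 hpi and -0.52 ± 0.62 at 24 hpi (edgeR adjusted p = 0.902).

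The second cone arrestin, arr3b, had the highest log2 fold change of the 44 genes at 6 hpi, 2.82 ± 0.72 (edgeR adjusted p = 0.376). Its 6 hpi controls held 235, 56.9 and 53.0 CPM and the injured libraries 837, 379 and 1220 CPM. The groups did not overlap, but levels within each group differed by more than 3-fold. The rod arrestin sagb had log2 fold changes of 0.53 ± 0.23, 0.09 ± 0.23 and 0.36 ± 0.23 at 6, 12 and 24 hpi.

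Opsin kinases phosphorylate the light-activated opsin. The rod kinase grk1a (chromosome 1, 245076 to 258138, plus strand, GRCz11) had control levels of 212, 240 and 355 CPM (6 hpi), 217, 320 and 295 CPM (12 hpi) and 457, 601 and 392 CPM (24 hpi). After injury it held 414, 214 and 388 CPM (6 hpi), 345, 279 and 226 CPM (12 hpi) and 463, 523 and 583 CPM (24 hpi). The groups overlapped at all 3 times. Its log2 fold change was 0.33 ± 0.25 at 6 hpi (edgeR adjusted p = 0.729), 0.03 ± 0.25 at 12 hpi and 0.11 ± 0.25 at 24 hpi (edgeR adjusted p = 0.961).

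The cone kinase grk7a (chromosome 2, 16536453 to 16544343, plus strand, GRCz11) had control levels of 67.4, 101 and 47.6 CPM (6 hpi), 168, 143 and 154 CPM (12 hpi) and 63.0, 90.4 and 292 CPM (24 hpi). The injured libraries held 168, 163 and 152 CPM (6 hpi), 161, 159 and 65.7 CPM (12 hpi) and 130, 41.2 and 75.4 CPM (24 hpi). At 6 hpi the injured libraries lay above the controls. The log2 fold change was 1.16 ± 0.49 at 6 hpi (edgeR adjusted p = 0.522), -0.27 ± 0.48 at 12 hpi and -0.86 ± 0.49 at 24 hpi (edgeR adjusted p = 0.668). grk1b, which is expressed in cones in zebrafish, had a log2 fold change of 1.49 ± 0.39 at 6 hpi (edgeR adjusted p = 0.376).

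Guanylate cyclase activating proteins (guca1 genes) and recoverins are calcium sensors, the first of the cyclases that restore cyclic GMP and the second of opsin kinases. At 6 hpi the log2 fold changes were 1.18 ± 0.39 for guca1c, 1.22 ± 0.56 for guca1d, 0.36 ± 0.22 for guca1a and 0.55 ± 0.24 for guca1b. Among recoverins, rcvrn2 had a log2 fold change of 1.17 ± 0.42 (edgeR adjusted p = 0.469), rcvrna one of 0.31 ± 0.25 and rcvrn3 one of 0.39 ± 0.44. The cyclases gucy2f and gucy2d had log2 fold changes of 0.61 ± 0.25 and 0.69 ± 0.44. guca1c, guca1d, rcvrn2, rcvrn3 and gucy2d did not overlap between the groups at that time, whereas guca1a, guca1b, rcvrna and gucy2f did.

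The channel genes code for the cation channels that close when cyclic GMP falls, and slc24a1 for the rod calcium exchanger. At 6 hpi the cone channel gene cnga3a (chromosome 6, 38791900 to 38818582, minus strand, GRCz11) stood at 33.9, 43.2 and 37.3 CPM in the controls and at 76.6, 68.5 and 81.2 CPM in the injured libraries. The groups did not overlap, and the log2 fold change was 0.98 ± 0.43 (edgeR adjusted p = 0.526). cngb3.1, the other cone channel gene, had a log2 fold change of 0.97 ± 0.54, the rod channel gene cngb1a 0.03 ± 0.34, the lowest of the 44 genes, and slc24a1 0.36 ± 0.31.

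Peripherin and rom1 shape the rim of the outer segment discs. prph2a, a peripherin copy, held 107, 111 and 93.4 CPM in the 6 hpi controls and 309, 320 and 444 CPM in the injured libraries. The groups did not overlap, and the log2 fold change was 1.79 ± 0.41 (edgeR adjusted p = 0.376, adjusted p = 0.0296 by DESeq2). The other copy, prph2b, had one of 0.58 ± 0.21 and rom1a one of 0.50 ± 0.47. Of the regulators, rgs9a, which speeds the shut-off of transducin, had a log2 fold change of 1.50 ± 0.51, and the phosducins pdca and pdcb, which bind the beta and gamma subunits of transducin, had log2 fold changes of 0.60 ± 0.26 and 1.00 ± 0.38.

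Of the transcription factors, crx, a homeobox factor that drives photoreceptor genes (chromosome 5, 36932718 to 36936443, plus strand, GRCz11), had control levels of 1071, 765 and 902 CPM (6 hpi), 962, 1181 and 879 CPM (12 hpi) and 898, 934 and 1054 CPM (24 hpi). Its injured levels were 1183, 904 and 1141 CPM (6 hpi), 1179, 1008 and 874 CPM (12 hpi) and 1224, 1367 and 846 CPM (24 hpi). The groups overlapped at each time, and the highest level was 1.79 times the lowest. edgeR gave a log2 fold change of 0.24 ± 0.18 at 6 hpi (edgeR adjusted p = 0.737), 0.02 ± 0.18 at 12 hpi and 0.25 ± 0.18 at 24 hpi (edgeR adjusted p = 0.773).

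nr2e3 (chromosome 25, 22274642 to 22278655, plus strand, GRCz11), a nuclear receptor that represses cone genes in mouse rods, had control levels of 917, 874 and 1030 CPM (6 hpi), 1452, 1235 and 1456 CPM (12 hpi) and 1582, 1303 and 1924 CPM (24 hpi). The injured libraries held 1833, 1194 and 1306 CPM (6 hpi), 2314, 1545 and 1171 CPM (12 hpi) and 1862, 1880 and 1507 CPM (24 hpi). At 6 hpi the groups did not overlap. Its log2 fold change was 0.62 ± 0.22 at 6 hpi (edgeR adjusted p = 0.457), 0.28 ± 0.22 at 12 hpi and 0.13 ± 0.22 at 24 hpi (edgeR adjusted p = 0.941). nrl had log2 fold changes of 0.69 ± 0.43, 0.84 ± 0.44 and -0.30 ± 0.43 at the 3 times.

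At 12 hpi the injured and control eyes were closer. No photoreceptor gene was called by edgeR, where 0% of all genes were, and 2 of 44 were at an unadjusted p under 0.05, where 3.64% of all genes were. These were pde6ha, lower in the injured libraries, and cngb1a, higher with a log2 fold change of 0.78 ± 0.34. The same 2 genes were the only members whose groups did not overlap, where 4.14% of all genes lay above in every injured library and 4.26% below. The median log2 fold change was 0.12 for rod genes and -0.31 for cone genes, and leaving out replicate 1 moved the rod median to -0.02 (control) or -0.06 (injured). The cone median was -0.05 without injured replicate 3 and -0.58 without injured replicate 2. At 12 hpi no member (0) had an FDR under 0.05 in the authors' deposited table, where 0.109% of its genes did.

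At 24 hpi most rod genes had fitted values above 0 and most cone genes below. The median log2 fold change was 0.24 for the 14 rod genes, 13 of which were above 0, and -0.54 for the 16 cone genes, 2 of which were above 0, against 0.02 for all genes tested. The cone value rested on 1 library: without control replicate 3, the cone-rich one, the cone median was 0.25 and 39 of 44 genes were above 0, against 23 of 44 with it. None was called, where 0% of all genes were, and 0 of 44 were at an unadjusted p under 0.05, where 8.48% of all genes were. Leaving out 1 library gave 0 to 8 of 44, where 6.01 to 8.25% of all genes were below that p. Fitted to the 6 libraries of that time alone, edgeR put 13 of 44 higher and 1 lower at an unadjusted p under 0.05, where 10.1% of all genes were below that p. That fit called 0 members, with a lowest adjusted p of 0.055, where it called 0.323% of all genes. In 15 of 44 every injured library lay above every control, where 7.85% of all genes did. Of these, 10 were rod genes, gnat1, gnb1b, gngt1, pde6a, pde6b, pde6gb, saga, sagb, cngb1a and slc24a1, and 5 were unsplit, guca1a, guca1b, gucy2f, prph2b and pdca. At 24 hpi no member (0) had an FDR under 0.05 in the authors' deposited table, where 2.41% of its genes did.

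At 24 hpi the summed shares of other lists differed too, some lower and some higher in the injured libraries. The ganglion marker list took 0.264% ± 0.034 (SD, n = 3) of the counts in the controls and 0.149% ± 0.048 in the injured libraries, and 13 of its 23 tested genes had every injured library below every control, where 8.40% of all genes did. The amacrine cell list took 0.0379% ± 0.0087 and 0.0158% ± 0.0025, and the opsins 15.8% ± 0.33 and 18.1% ± 0.74, each without overlap. The opsin rise was one of the sum, since 6 of 10 opsins had a log2 fold change below 0. A list of 76 other photoreceptor and visual cycle genes took 5.11% ± 0.18 and 6.07% ± 0.56, without overlap. The bipolar, horizontal, Mueller glia, pigment epithelium and macrophage lists overlapped. Their part in the result was not tested.

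Taken over the 3 times, the mean injury effect was called for 0 of 44 genes, where 0% of all genes were called. At an unadjusted p under 0.05, 8 of 44 were higher, where 6.40% of all genes were: nr2e3, pde6a, prph2b, sagb, gnb3b, pdca, pde6gb and gnat1. Scaled by the total count alone, 3 of 44 were, where 13.6% of all genes were below that p in either direction. Leaving out 1 library gave as few as 2 of 44 (without control replicate 2 at 6 hpi), where 9.56% of all genes were below it. It gave as many as 17 without injured replicate 2 at 6 hpi (15.1% of all genes) or injured replicate 3 at 12 hpi (14.7%). The test of whether the injury effect differed between times called 0 of 44, where 0% of all genes were called. At an unadjusted p under 0.05 it held 14 of 44, of which 10 were cone genes, 4 unsplit and 0 rod genes, where 5.00% of all genes were below that p. With the sample sheet set as a covariate 6 of 44 were, where 4.41% of all genes were.

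The ratio of a rod gene to the cone gene of the same role within a library does not depend on library scaling. Over 8 pairs the injured minus control difference in log2 ratio, averaged over the 3 times, lay between -0.20 (gnb1b to gnb3b) and 0.39 (cngb1a to cngb3.1). In the two-sided exact permutation test within times the 8 pairs had p between 0.308 and 0.948, and between 0.935 and 0.948 after Benjamini-Hochberg adjustment over the pairs; the smallest p this test can give is 0.00025. For gnat1 to gnat2 the log2 ratio was 5.61 ± 0.70 (SD, n = 3) in the 6 hpi controls and 4.72 ± 0.47 in the injured libraries of that time. The 12 hpi values were 4.41 ± 0.40 and 4.70 ± 0.56, and those of 24 hpi were 6.18 ± 0.99 and 6.72 ± 0.67. The groups overlapped at each time. All 8 pairs had a negative difference at 6 hpi and a positive one at 12 and 24 hpi, and they share libraries. Such differences partly cancel in the average over times, so this test cannot decide on a difference at a single time. The groups did not overlap for gnb1b to gnb3b at 6 hpi (difference -0.91), nor for saga to arr3a (0.74) and cngb1a to cngb3.1 (1.17) at 12 hpi. For all other pairs and times they overlapped. Within a single time 3 against 3 libraries cannot give a p below 0.1.

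Summed shares of counts are given with no test. The rod sum at 24 hpi was 6.63% ± 0.018 (SD, n = 3) in the controls and 7.40% ± 0.12 in the injured libraries, without overlap. At 6 hpi the rod sum was 5.28% ± 1.41 and 6.63% ± 1.45 and overlapped. The cone sum was 0.477% ± 0.064 in the 6 hpi controls and 0.798% ± 0.063 in the injured libraries, without overlap. It was 0.971% ± 0.062 and 0.754% ± 0.25 at 12 hpi, and 0.736% ± 0.284 and 0.651% ± 0.131 at 24 hpi, with overlap at both times. Control replicate 3 at 24 hpi held 1.06% of its counts in cone genes, against 0.600% and 0.546% in replicates 1 and 2.

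The uninjured eyes are the reference of every comparison with injury, so their own difference between times was tested. Each time is a separate group of libraries. Hours since the operation on the other eye therefore cannot be told apart from anything else that differed between the groups. Across the 3 control groups 6 of 44 photoreceptor genes were called, where 1.54% of all genes were: guca1a, guca1b, guca1c, pde6ha, gngt2b and saga. At 24 against 6 hpi 5 were called, all higher, where 0.890% of all genes were called higher. At 24 against 12 hpi 3 were called, where 1.34% of all genes were, guca1b higher and pde6ga and cnga3a lower. At 12 against 6 hpi 0 were called, where 0% of all genes were, and 17 of 44 were higher at an unadjusted p under 0.05, where 3.05% of all genes were. The median log2 fold change at 12 against 6 hpi was 1.20 for cone genes and 0.12 for rod genes. The rod median was 0.03, -0.04 and 0.52 without control replicate 1, 2 and 3 at 6 hpi, where the cone median was above 1 each time. The smaller sample sheet set holds control replicates 2 and 3 at 6 hpi and no control of 12 hpi. With the set as a covariate, 11 of 44 were higher at an unadjusted p under 0.05 at 12 against 6 hpi. In that fit 5.11% of all genes were below that p in either direction. The median was then 1.04 for cone genes and 0.22 for rod genes. This comparison and that of injured against control at 6 hpi share the 3 control libraries of 6 hpi. The cone sum was 0.477% ± 0.064 (SD, n = 3) of the counts there, 0.971% ± 0.062 in the 12 hpi controls and 0.736% ± 0.284 in those of 24 hpi. The part of these levels in either result was not tested.

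guca1a (chromosome 4, 22343093 to 22350976, plus strand, GRCz11) was the control call with the lowest adjusted p. Its control levels were 171, 127 and 161 CPM (6 hpi), 210, 297 and 297 CPM (12 hpi) and 509, 442 and 518 CPM (24 hpi). The 3 groups did not overlap. The log2 fold change at 24 against 6 hpi was 1.68 ± 0.23 (edgeR adjusted p = 0.000754), and leaving out any 1 of the 6 libraries gave an adjusted p of at most 0.00662.

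guca1b (chromosome 23, 19227296 to 19230627, minus strand, GRCz11) stood at 564, 465 and 828 CPM in the 6 hpi controls, 571, 772 and 738 CPM in those of 12 hpi, and 1647, 1648 and 1629 CPM in those of 24 hpi. The earlier times overlapped and 24 hpi stood apart from both. The log2 fold change was 1.41 ± 0.25 at 24 against 6 hpi (edgeR adjusted p = 0.00478, at most 0.0413 without 1 library) and 1.24 ± 0.25 at 24 against 12 hpi (edgeR adjusted p = 0.0147). The second call was lost without control replicate 1 or 3 at 12 hpi (adjusted p = 0.0844 and 0.0530) or replicate 1 or 2 at 24 hpi (0.0525 and 0.0555).

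guca1c (chromosome 15, 2884711 to 2903475, minus strand, GRCz11), a cone gene, had control levels of 64.4, 71.6 and 47.2 CPM (6 hpi), 180, 161 and 172 CPM (12 hpi) and 172, 110 and 386 CPM (24 hpi). The 6 hpi controls lay below those of both later times. The log2 fold change at 24 against 6 hpi was 1.87 ± 0.40 (edgeR adjusted p = 0.0204). It was not called without control replicate 1, 2 or 3 at 6 hpi (adjusted p = 0.0872, 0.0635 and 0.0660) or replicate 3 at 24 hpi (0.119, with a log2 fold change of 1.20).

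pde6ha, whose levels are given above, had a log2 fold change of 1.07 ± 0.18 at 24 against 6 hpi (edgeR adjusted p = 0.00350, at most 0.0299 without 1 library). Its controls at 12 hpi were already near those at 24 hpi, with a log2 fold change of 0.99 ± 0.18 at 12 against 6 hpi (edgeR adjusted p = 0.429). saga had a log2 fold change of 1.00 ± 0.21 at 24 against 6 hpi (edgeR adjusted p = 0.0208), with the 24 hpi controls above all earlier ones. That call was lost without control replicate 1 or 2 at 6 hpi (adjusted p = 0.107 and 0.119) or replicate 1 or 2 at 24 hpi (0.0685 and 0.0814).

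gngt2b (chromosome 12, 3249054 to 3252263, minus strand, GRCz11) had control levels of 153, 191 and 191 CPM (6 hpi), 492, 441 and 508 CPM (12 hpi) and 298, 227 and 442 CPM (24 hpi). It was called over the 3 times (edgeR adjusted p = 0.0343) and in no pair of times, with a log2 fold change of 1.43 ± 0.28 at 12 against 6 hpi (edgeR adjusted p = 0.429). Over the 3 times the call of gngt2b held in 2 of 9 fits that left out 1 library, those without control replicate 2 or 3 at 24 hpi, and its adjusted p reached 0.143. The call of saga held in 2 of 9, without control replicate 3 at 6 hpi or 2 at 12 hpi, and that of guca1c in 1 of 9, without control replicate 2 at 24 hpi. Those of guca1a, guca1b and pde6ha held in 9 of 9.

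pde6ga had control levels of 1579, 1445 and 3323 CPM (6 hpi), 1954, 3363 and 2910 CPM (12 hpi) and 1322, 769 and 940 CPM (24 hpi). The 24 hpi controls lay below all earlier ones, and the log2 fold change at 24 against 12 hpi was -1.44 ± 0.32 (edgeR adjusted p = 0.0336). The call was lost without control replicate 2 or 3 at 12 hpi (adjusted p = 0.136 and 0.108) or replicate 2 or 3 at 24 hpi (0.187 and 0.123). The other inhibitory gene named for rods, pde6gb, had a log2 fold change of 0.19 ± 0.25 in the same comparison.

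cnga3a stood in the controls at 84.1, 77.3 and 67.8 CPM (12 hpi) and 15.1, 9.65 and 38.7 CPM (24 hpi). Its log2 fold change was -1.85 ± 0.44 (edgeR adjusted p = 0.0462). It was called without control replicate 3 at 24 hpi (log2 fold change -2.63, adjusted p = 0.00558) and not without any of the other 5 libraries (adjusted p = 0.0928 to 0.209). That replicate decided the count of this comparison. Without it 11 members were called, guca1b higher and 10 lower: cnga3a, gnat2, gnb3b, pde6c, arr3a, grk1b, guca1d, rcvrn2, prph2a and pdcb. This was 11 of 44 where 1.03% of all genes were called. Over the 3 times 13 were then called, where 1.06% of all genes were. Without control replicate 3 at 12 hpi or replicate 2 at 24 hpi, 0 were called at 24 against 12 hpi, where 0.792% and 0.622% of all genes were.

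**Figure D4:**
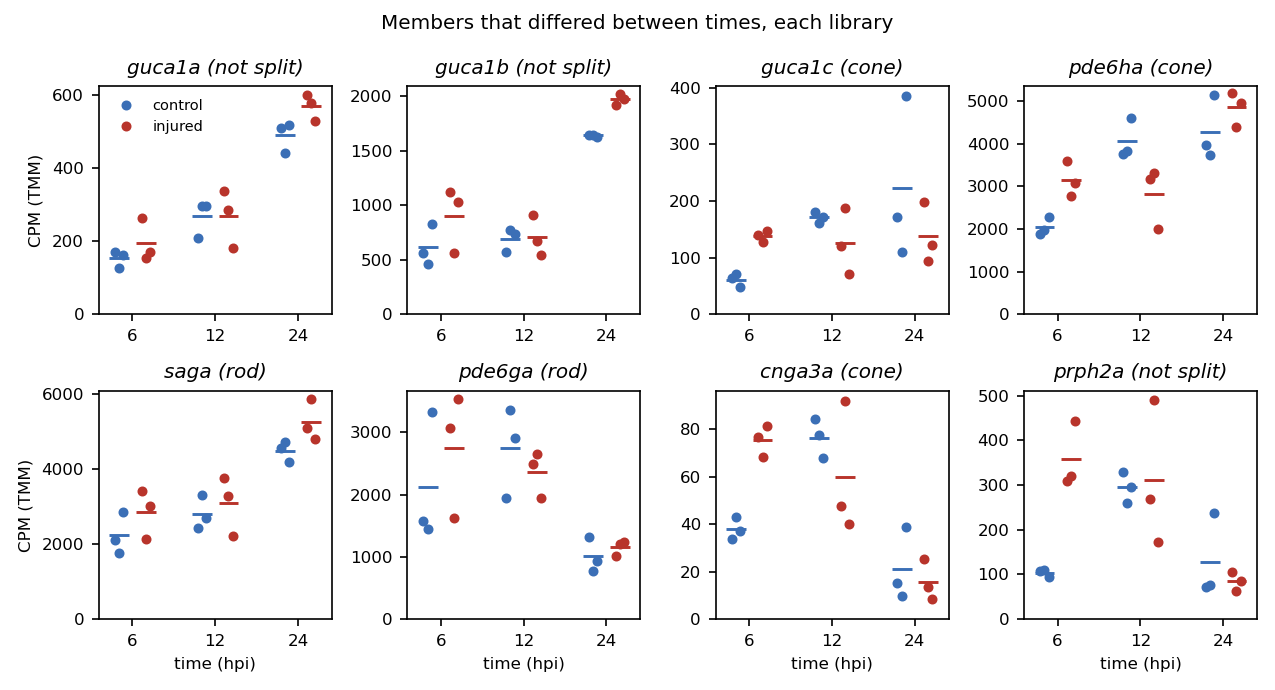
CPM (TMM) of 8 genes in each control and injured library at 6, 12 and 24 hpi, with group means of 3. guca1a and guca1b stand highest at 24 hpi in both eyes, whereas pde6ga and cnga3a stand lowest there, with 1 control library of cnga3a at 38.7 CPM.

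The injured libraries were compared over time in the same way, a comparison added after the control result was seen. The limit given for the control times holds here too. At 24 against 6 hpi 8 members were called, where 2.01% of all genes were: guca1a (log2 fold change 1.54 ± 0.23), guca1b (1.12 ± 0.24) and saga (0.88 ± 0.21) higher, and cnga3a (-2.26 ± 0.45), prph2a (-2.08 ± 0.41), grk1b (-1.93 ± 0.40), rcvrn2 (-1.75 ± 0.42) and pdcb (-1.54 ± 0.38) lower. At 24 against 12 hpi 5 were called, where 1.20% of all genes were: guca1b (1.48 ± 0.25), guca1a (1.09 ± 0.23) and pde6ha (0.78 ± 0.18) higher, and cnga3a (-1.93 ± 0.44) and prph2a (-1.88 ± 0.41) lower. The injured levels of guca1a were 264, 153 and 172 CPM (6 hpi), 336, 286 and 181 CPM (12 hpi) and 601, 578 and 529 CPM (24 hpi). Those of guca1b were 1121, 563 and 1033 CPM (6 hpi), 910, 672 and 546 CPM (12 hpi) and 1923, 2018 and 1978 CPM (24 hpi). For both genes each 24 hpi library lay above each earlier one.

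Single injured libraries decided most of these calls. At 24 against 6 hpi guca1a held without any 1 library (adjusted p at most 0.0124) and rcvrn2 in 0 of 6 such fits. The count was 1 of 44, guca1a, without injured replicate 2 or 3 at 24 hpi, and 4 and 3 without injured replicate 2 and 3 at 6 hpi. It was 5 without injured replicate 1 at 24 hpi and 6 without injured replicate 1 at 6 hpi. The share of all genes called in these fits ranged from 0.996% to 1.36%. At 24 against 12 hpi guca1b held without any 1 library (adjusted p at most 0.0384). The count was 1 without injured replicate 2 at 12 or 24 hpi, 2 without replicate 3 at 24 hpi and 3 without replicate 1 at 24 hpi. It was 4 without injured replicate 3 at 12 hpi and 6 without injured replicate 1 at 12 hpi. In these last 2 fits 0.507% and 1.28% of all genes were called, the lowest and highest shares of this comparison.

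Across the 18 libraries the genes fell along gnat1 or gnat2, described by Pearson's r of log2 CPM with no test, since the genes share libraries and scaling. Among the other rod genes, r with gnat1 was 0.72 or more except for pde6ga (0.03) and nrl (0.25). pde6gb (0.99), gngt1 (0.98), sagb (0.97) and pde6a (0.97) were most like it. Among the other cone genes, r with gnat2 was 0.49 or more except for grk7b (-0.15) and pde6ha (0.05). Most like gnat2 were rcvrn2 and prph2a (both 0.98), gnb3b (0.97), pde6c (0.97) and pdcb (0.96). The paired copies of unsplit genes parted: prph2b, pdca and rcvrna had r of 0.94, 0.97 and 0.93 with gnat1, where prph2a, pdcb and rcvrn2 had -0.08, -0.14 and -0.22. pde6ga had r of 0.60 with gnat2 across all libraries, but 0.86 with gnat1 and -0.05 with gnat2 once each library was set against its group mean. Set against group means in the same way, pde6ha had r of 0.71 with gnat2 and 0.58 with gnat1.

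**Figure D5:**
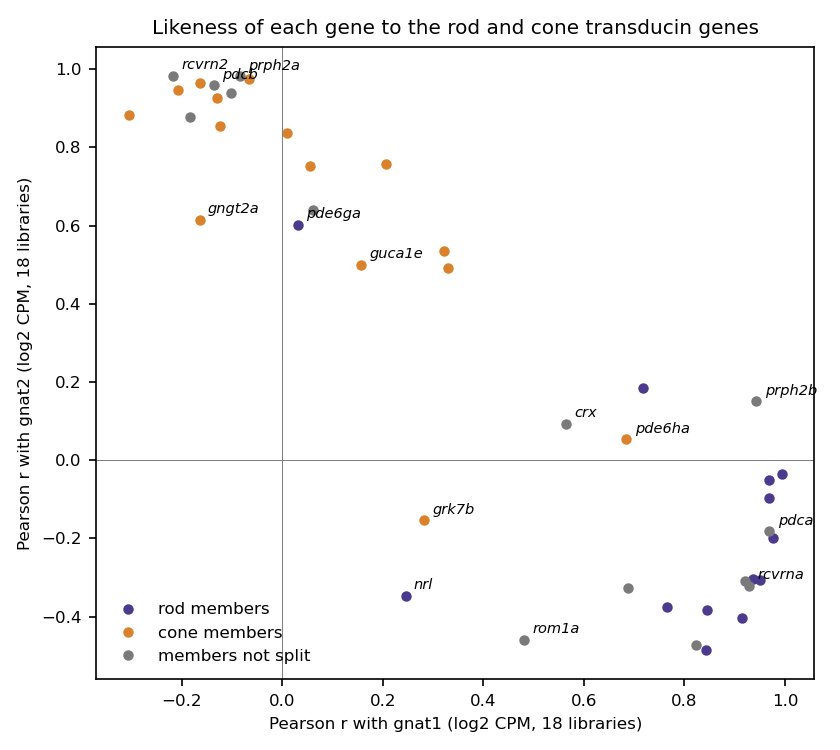
Pearson's r of each gene with gnat1 (x axis) and gnat2 (y axis) over 18 libraries, on log2 CPM, coloured by rod, cone or unsplit. Most rod genes lie at the lower right. Most cone genes lie in the upper part, on both sides of 0 on the x axis. Away from the genes of their class are pde6ga (0.03 and 0.60), pde6ha (0.68 and 0.05), nrl (0.25 and -0.35) and grk7b (0.28 and -0.15). With libraries set against their group means, which is not drawn, the values of pde6ha were 0.58 and 0.71.

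Cone genes varied more between libraries of a group than rod genes. The within-group SD of log2 CPM had a median of 0.61 for cone, 0.35 for rod and 0.45 for unsplit genes, against 0.48 for all genes tested. Its lowest value was that of pde6ha (0.23), a cone gene, and its highest those of guca1e (1.39) and grk7b (1.23), the genes with the fewest counts. The highest library exceeded the lowest by a median of 7.29-fold for cone and 2.74-fold for rod genes.

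Over the 18 libraries together, gnat1 varied against the reporter driver gene. Of 3 correlations over 18 libraries, that of gnat1 with isl2b passed its test, with Pearson's r = -0.56 (permutation p = 0.0143, adjusted 0.0430) and Spearman's rho = -0.57 (permutation p = 0.0147, adjusted 0.0442). Without the 2 libraries farthest from the median of gnat1 r was -0.61, for deviations from the group means it was -0.62, and in the 14 libraries of the larger sample sheet set -0.64. In that set rho was -0.57 (permutation p = 0.0352, adjusted 0.106), no longer past the threshold. In the 9 control libraries r was -0.01 (permutation p = 0.979) and rho 0.23 (permutation p = 0.553). In the 9 injured libraries r was -0.78 (permutation p = 0.0157, adjusted 0.0472) and rho -0.60 (permutation p = 0.0989, adjusted 0.297). The difference between control and injured libraries was not tested. For gnat1 with gnat2 r was -0.10 (permutation p = 0.705) and rho -0.19 (permutation p = 0.455), and for gnat2 with isl2b r was -0.20 (permutation p = 0.427) and rho -0.20 (permutation p = 0.414). Both values are shares of one library total.

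Other genes of the photoreceptor and visual cycle formed a list of 76, of which 69 were tested. Of these, 0 were called at 6, 12 and 24 hpi against control, where 0% of all genes were. At 6 hpi 22 of 69 were higher and 1 lower at an unadjusted p under 0.05, where 5.20% of all genes were higher and 4.07% lower, and the median log2 fold change was 0.42. In the control eyes at 24 against 6 hpi 3 of 69 were called higher and 2 lower, where 0.890% and 0.947% of all genes were. At 24 against 12 hpi 1 was called higher and 3 lower, where 0.405% and 0.936% of all genes were. The 10 opsins had a median log2 fold change of 0.97 at 6 hpi and -0.24 at 24 hpi, with 0 called where 0% of all genes were. Both lists had most of their tested genes above 0 at 6 hpi, 55 of 69 and 10 of 10, where 48.0% of all genes were.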

How the data were processed

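RNA-seq was measured in 18 libraries. Total counts per gene were deposited by the authors as raw whole numbers, with RPKM beside them, and genome build GRCz11 is named in the submitters' processing notes. The aligner, the counting tool, the use of strand and the handling of reads shared by near-identical copies are not given in the sources used here, so a and b copies of a gene may share reads. The deposited tables also hold the authors' log2 fold changes and adjusted p-values, quoted only as such. The column name of injured replicate 1 at 6 hpi alone includes the word trimmed, and what was done to those reads is not given.

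Counts were tested with edgeR 4.0.16 in R 4.3.3 (TMM, filterByExpr with a minimum count of 10, 1 mean per group over all 18 libraries, quasi-likelihood test, Benjamini-Hochberg over 17527 genes, called at an adjusted p under 0.05). The biological coefficient of variation was 0.517. edgeR gives no SE, so the SE beside each log2 fold change was computed from its test. It is the absolute log2 fold change divided by the square root of the F statistic. Levels are CPM with TMM factors, and correlations used log2 CPM (prior count 2) and 100000 permutations. Gene pair ratios used a pseudocount of 0.5 and 8000 regroupings within times. DESeq2 1.42.0 and limma 3.58.1, on log2(RPKM + 1), were alternatives, with other scalings, no low-count filter, a replicate block, a sample sheet covariate and single libraries left out. The edgeR step was tested on simulated data. The members and the gene lists were chosen with earlier results of these data known, and gene copies were assigned to rods or cones from general knowledge. Levels in every library are given for gnat1, gnat2, pde6a, pde6c, pde6ha, saga, arr3a, grk1a, grk7a, crx, nr2e3, guca1a and guca1b. Of the other genes called by the main edgeR fit, guca1c, gngt2b, pde6ga, cnga3a and prph2a have levels for some groups only. For grk1b, rcvrn2 and pdcb, also called, no levels are given. The remaining genes are given by role. No 2 replicates held identical counts.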

Additional observations from a re-analysis of the deposited data

Results flagged for a closer look

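pde6ha, the inhibitory subunit of cone phosphodiesterase, stood out because every injured library lay above every control at 6 hpi and below every control at 12 hpi. Every injured library lay above every control at 6 hpi for 20 of 44 members and 6.13% of all genes. Every injured library lay below every control at 12 hpi for 1 of 44 members and 4.26% of all genes. The share of all genes with both was not counted. The log2 fold changes of pde6ha were 0.63 and -0.52. Neither passed edgeR's test after adjustment, and the joint test of a difference in injury effect between times gave an unadjusted p of 0.00103 and an adjusted p of 0.992. Both comparisons rest on the control levels of their own time, which were 2039 CPM on average at 6 hpi and 4062 CPM at 12 hpi.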

How the results depend on the processing

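Which genes were called over time depended on the fit, and the share of all genes called moved too. Over the 3 control times edgeR called 6 members (1.54% of all genes). It called 3 with a replicate block (1.26%) and 4 with the sample sheet covariate (1.49%). With limma 15 were called (3.55%) and with DESeq2 19 (4.20%). DESeq2 called 4 members at 12 against 6 hpi (0.155%), 11 at 24 against 6 hpi (4.25%) and 8 at 24 against 12 hpi (3.22%), where limma called 10 (3.18%). In the injured libraries at 24 against 6 hpi the counts were 5 with a replicate block (1.75%), 13 with limma (4.14%) and 14 with DESeq2 (4.93%). At 24 against 12 hpi they were 11 with total counts alone (1.59%), 2 with a replicate block (0.822%), 2 with the sample sheet covariate (0.867%), 13 with limma (3.04%) and 15 with DESeq2 (3.79%). For injured against control at 6 hpi, 2 were called from the 6 libraries alone (0.0386% of all genes) and 5 by DESeq2 (0.453%). The cause of these differences was not tested.

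Leaving out 1 library gave 3 to 13 calls over the control times, 3 to 9 at 24 against 6 hpi and 0 to 11 at 24 against 12 hpi. The shares of all genes called were 0.705 to 1.80%, 0.757 to 2.18% and 0.622 to 1.03%. In the injured libraries it gave 1 to 6 calls in both comparisons. There 0.996 to 1.36% of all genes were called at 24 against 6 hpi and 0.507 to 1.28% at 24 against 12 hpi. At 12 hpi the injury log2 fold change, not called for any of these genes, changed sign, with ranges of -0.10 to 0.24 (gnat1), -0.48 to 0.15 (gnat2), -0.031 to 0.32 (saga), -0.13 to 0.17 (grk1a), -0.46 to 0.046 (grk7a), -0.098 to 0.15 (crx) and -0.024 to 0.48 (nr2e3). At 24 hpi the ranges were -0.71 to 0.42 (gnat2), -1.14 to 0.22 (pde6c), -1.18 to 1.04 (arr3a), -0.016 to 0.30 (grk1a), -1.35 to 0.099 (grk7a) and -0.0018 to 0.28 (nr2e3). The mean rod to cone difference ranged from -0.21 to 0.10 (gnat1 to gnat2), -0.16 to 0.26 (grk1a to grk7a), -0.018 to 0.16 (pde6ga to pde6ha) and -0.15 to 0.36 (saga to arr3a).

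With total counts alone grk1a turned to -0.00565 at 12 hpi and -0.00644 at 24 hpi, and crx to -0.021 at 12 hpi. In the larger sample sheet set the gnat1 to gnat2 difference was 0.14, and for deviations from group means their correlation was 0.028. Between the injured and the control library of the same number, correlations were 0.068 to 0.130 at 6 hpi, -0.066 to 0.105 at 12 hpi and -0.068 to 0.023 at 24 hpi. These values served only to check whether the numbers mark pairs. At 6 hpi each library correlated best with its own number, a hint from the data; at 12 and 24 hpi this did not hold. Since not every pair was over 0.1 and the labels do not say that a number marks 1 fish, the numbers were not taken to pair the samples. The spread between libraries, a biological coefficient of variation of 0.517 with 3 libraries a group, limits what these tests can show.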
